A study of Mus musculus with 11 samples.

Results

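The comparison set pluripotent cells that had been induced from ventricular myocytes (ViPSC, 3 arrays) against embryonic stem cells (ESC, 3 arrays), 6 of the 11 arrays of the series, across 18193 genes. The arrays were chosen by their titles alone, and each ESC array is shown by itself because the ESC arrays differed from one another. Total RNA had been hybridised to Affymetrix mouse expression arrays. The other 5 arrays held induced cells made from tail tip fibroblasts (TiPSC, 3 arrays) and the source cells, ventricular myocytes (VM, 1 array) and tail tip fibroblasts (TTF, 1 array) of pups at postnatal day 1. Mice and cells of both groups had a mixed C57/Bl and BlackSwiss background, and the ESC were described as genetically matched. Both groups grew under the same conditions, on irradiated embryonic fibroblast feeders with serum and LIF, and feeders were removed before RNA extraction by letting them settle on uncoated dishes. The sources used here do not say how reprogramming was done, whether a group was 1 line or several, or whether its 3 arrays came from separate cultures. The p-values therefore measure only the spread between these samples, and with 3 arrays per group an exact permutation test of a single value could not go below a two-sided p of 0.1.

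Reprogramming returns a differentiated cell to a state that sustains Pou5f1 (Oct4), Nanog and Sox2 and can form every tissue of the embryo. Embryonic stem cells, taken from the inner cell mass of the blastocyst, are the usual standard for that state. In serum and LIF they are known to fluctuate between naive and primed states, and a few cells pass through states that resemble primitive endoderm or the 2-cell embryo. Induced cells can also differ from embryonic stem cells at imprinted loci, where 1 parental copy of a gene is silenced by DNA methylation, and most often at the Dlk1-Dio3 cluster.

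The ViPSC arrays were nearly alike and the ESC arrays were not. Across genes, which are not independent replicates, ViPSC arrays correlated with each other at 0.998. They correlated at 0.993 with ESC 1, at 0.989 with ESC 2 and at 0.987 with ESC 3, while ESC 1 correlated at 0.988 with ESC 2 and at 0.984 with ESC 3. The ViPSC mean was at least 1 log2 unit, or 2-fold, away from ESC 1 in 222 genes, from ESC 2 in 480 and from ESC 3 in 627. Between ESC arrays the same distance was reached by 532 genes for ESC 1 and ESC 2, 880 for ESC 1 and ESC 3 and 205 for ESC 2 and ESC 3, but by 9, 2 and 1 genes for the pairs of ViPSC arrays. ESC 1 was thus nearer to the ViPSC arrays than to the other ESC arrays. The range of the ESC arrays was wider than that of the ViPSC arrays in 13470 genes, and the median SD over genes was 0.0794 in ViPSC and 0.155 in ESC (log2, n = 3 each). In 9987 genes (54.9%) the ViPSC mean lay inside the range of the ESC arrays.

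**Figure D1:**
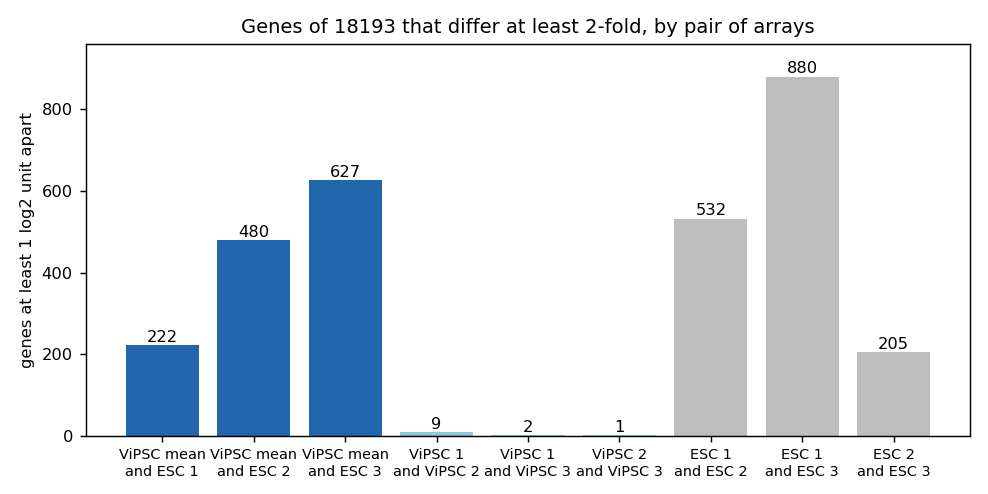
Number of genes, of 18193, at least 1 log2 unit (2-fold) apart, for the mean of the 3 ViPSC arrays and each ESC array (dark blue), for pairs of ViPSC arrays (light blue) and for pairs of ESC arrays (grey). The ViPSC mean was nearest to ESC 1, with 222 genes, and the widest distance was that of ESC 1 and ESC 3, with 880.

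Of the 18193 genes, 73 (0.401%) differed between ViPSC and ESC in limma's moderated test with a Benjamini-Hochberg adjusted p under 0.05, 53 higher (0.291%) and 20 lower (0.11%) in ViPSC. Of these, 35 differed at least 2-fold, 27 higher and 8 lower. At an unadjusted p under 0.05 in limma there were 2967 of the 18193 genes, 1649 higher and 1318 lower in ViPSC. Counts of list members at that p, given below, are to be set against these. ViPSC and ESC arrays were fully separated in all 73 called genes, and in 22.2% of all genes (11.3% higher and 10.9% lower in ViPSC). In 20 genes (0.11%), 15 of them called, the nearest arrays of the groups were at least 1 log2 unit apart. The number of calls depended on single arrays. It was 2780 (15.3%; 9.16% higher and 6.12% lower) without ESC 1 and 391 without ESC 3, and all 73 genes passed in both. Without ESC 2 it was 8, and without ViPSC 1, ViPSC 2 or ViPSC 3 it was 2, 2 and 0, with 1865, 1966 and 1833 genes at an unadjusted p under 0.05 in limma.

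The largest rise was in a Y-linked gene, and those after it included a protease and a phosphatase. Eif2s3y, a Y-linked translation initiation factor subunit, was at 8.28, 9.20 and 8.77 on the log2 scale in ViPSC 1, 2 and 3, against 3.73, 3.89 and 4.22 in ESC 1, 2 and 3. The difference was 4.81 ± 0.24 (SE, n = 3 per group; limma adjusted p = 0.00279). All 3 ESC arrays were near the bottom of the scale and no detection calls were used, so no fold is given. Its other probe set lay near the bottom of the scale in both groups. The Y-linked genes Uba1y, a ubiquitin-activating enzyme, and Uty, a relative of a histone demethylase, were higher in ViPSC by 1.52 ± 0.18 and 1.45 ± 0.17, and Uty did not pass in the limma fit of all 9 pluripotent arrays (adjusted p = 0.0621). Mep1b, which encodes the beta chain of the protease meprin, was at 8.41, 8.38 and 8.38 in ViPSC and at 5.55, 4.87 and 5.40 in ESC. Its difference was 3.12 ± 0.17 (limma adjusted p = 0.00366), and TiPSC were at 5.41 to 5.92. Acp5, the tartrate-resistant acid phosphatase known from osteoclasts, was at 9.23, 9.35 and 9.33 in ViPSC, against 7.32, 6.86 and 7.32 in ESC (2.14 ± 0.14, limma adjusted p = 0.00726).

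Further rises were in genes of varied roles. Neurog1, a proneural transcription factor, was at 6.22, 6.40 and 6.16 in ViPSC and 4.07, 3.74 and 4.66 in ESC, a difference of 2.10 ± 0.22 (limma adjusted p = 0.0327), which its second probe set did not show (0.11). Mt4, a metallothionein of stratified epithelia, was at 8.92, 9.21 and 8.96 in ViPSC against 6.95, 6.87 and 7.55 in ESC (1.91 ± 0.19, limma adjusted p = 0.0297). Lrriq4, a leucine-rich repeat gene, and Catsperd, a subunit of the sperm calcium channel CatSper, were higher by 1.72 ± 0.20 and 1.46 ± 0.16. Of these, Catsperd had a second probe set without the difference (−0.03), and with the mean of both its call was lost (limma adjusted p = 0.0568). Ldhc, the lactate dehydrogenase of spermatogenic cells, was higher by 1.24 ± 0.12, and Sox15, a Sox-family transcription factor on chromosome 11, by 1.43 ± 0.15. H2-Eb1, an MHC class II chain, was higher by 1.05 ± 0.11 and Cox7c, a cytochrome c oxidase subunit, by 0.70 ± 0.09.

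The largest fall was that of Ipp, a gene on chromosome 4 named for its transcription from a retroviral-like promoter in placenta. Ipp was at 5.95, 5.87 and 6.11 in ViPSC, against 9.95, 10.63 and 10.64 in ESC, a difference of −4.43 ± 0.20 (21.5-fold lower, limma adjusted p = 0.00224). It was also low in the 3 TiPSC arrays (5.97, 5.75 and 5.83) and in VM (4.89) and TTF (5.38), so the ESC arrays were the only 3 of the 11 with a high value. Mb21d2, a gene with a nucleotidyltransferase-like domain, was at 7.16, 6.97 and 6.63 in ViPSC and at 8.43, 8.62 and 8.19 in ESC (−1.49 ± 0.17, limma adjusted p = 0.0332). Mras, a Ras-family GTPase, fell by 1.27 and Folr1, the folate receptor alpha, fell by 1.16. Smo, the transducer of Hedgehog signals, fell by 1.14 and was lower in 2 of its 3 probe sets. Slc7a1, the cationic amino acid transporter that ecotropic retroviruses use for entry, was at 8.46, 8.40 and 8.67 in ViPSC and at 9.85, 9.60 and 9.50 in ESC (−1.14 ± 0.12, limma adjusted p = 0.0327). Tdrd3, a reader of methylated arginine, Qser1, a protector of developmental genes from DNA methylation, and Clec16a, a regulator of mitophagy, also fell. Tdrd3 was at 5.48, 5.38 and 5.62 in ViPSC and at 6.42, 6.72 and 6.35 in ESC, while Qser1 and Clec16a both fell by 0.88. Qser1 was lower in all 3 probe sets, and the second probe set of Clec16a differed by 0.09. With the mean of all probe sets Mras, Tdrd3 and Clec16a did not pass (limma adjusted p = 0.0568, 0.103 and 0.119). Igf2bp3, an oncofetal RNA-binding protein, fell by 0.76.

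**Figure D2:**
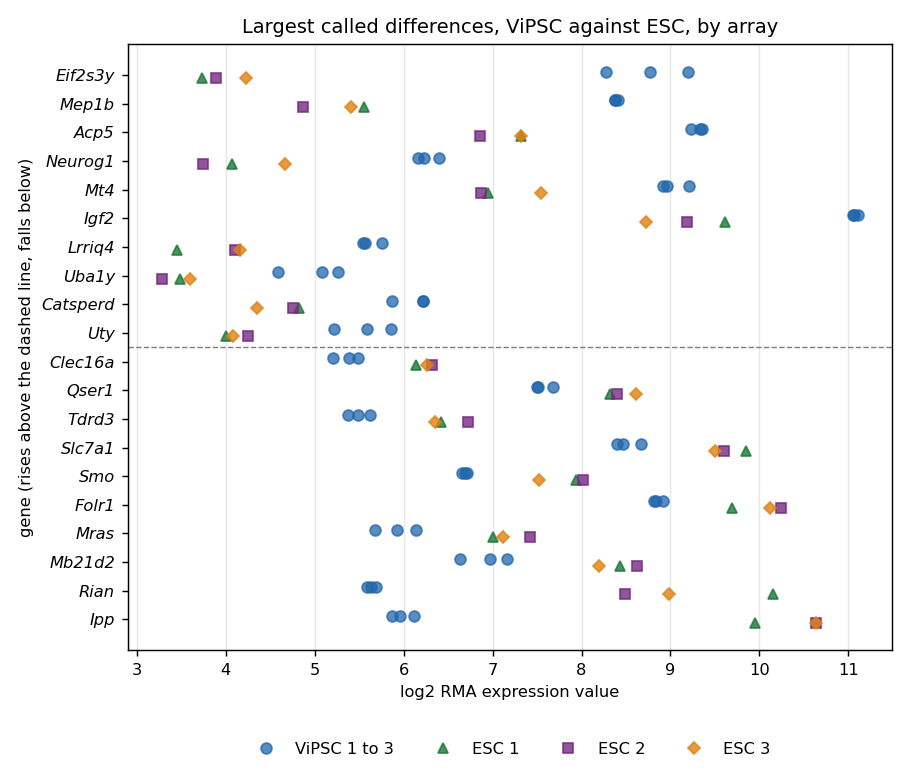
Log2 RMA values of the 10 largest rises and 10 largest falls among genes past the threshold, for each ViPSC array (circles) and ESC 1, 2 and 3 (triangles, squares and diamonds). No gene shown had overlapping groups, and Eif2s3y and Ipp had the widest gaps between the nearest arrays, 4.06 and 3.84 log2 units.

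The Dlk1-Dio3 cluster on chromosome 12 gave the second largest fall. Its noncoding RNAs Meg3 (Gtl2), Rian and Mirg are transcribed from the maternal copy in 1 direction, together with a large group of small RNAs, while Dlk1, an inhibitory Notch ligand, is read from the paternal copy. Rian, the host of box C/D small nucleolar RNAs, was at 5.69, 5.63 and 5.58 in ViPSC, against 10.16, 8.49 and 8.99 in ESC. The difference was −3.58 ± 0.39 (11.9-fold lower, limma adjusted p = 0.0327), all 4 probe sets were lower, and ESC 1 was the highest of the ESC arrays. With the mean of its probe sets the Rian difference was −2.25 and did not pass (limma adjusted p = 0.0692). Meg3 was at 6.38, 7.20 and 6.97 in ViPSC and at 10.61, 9.16 and 8.80 in ESC (−2.67 ± 0.47, limma adjusted p = 0.0676). Mirg, a host transcript of microRNAs, was at 4.28, 4.23 and 3.94 in ViPSC and at 7.91, 6.28 and 5.99 in ESC (−2.58 ± 0.47, limma adjusted p = 0.0731). With these probe sets Meg3 and Mirg did not pass the threshold, although no ViPSC array reached any ESC array, and the ESC arrays themselves spanned 1.80 and 1.92 log2 units. All 11 Meg3 probe sets were lower in ViPSC. When every probe set was tested, 1 of the 11 passed (−3.11, limma adjusted p = 0.044). Of the 4 measured members of the cluster, 1 was called, where 0.401% of all genes were. Dlk1 was at 3.87, 3.90 and 4.06 in ViPSC and 4.02, 4.06 and 4.09 in ESC, near the bottom of the scale. TiPSC had Rian at 5.94, 5.72 and 5.20, and any comparison of TiPSC with ESC shares these ESC arrays. In limma 1 gene (0.0055%) was called for TiPSC minus ESC and 2621 (14.4%) for ViPSC minus TiPSC. The 1 gene was Ipp, outside this cluster (limma adjusted p = 0.00149), and Rian did not pass for TiPSC minus ESC (limma adjusted p = 0.103). ViPSC minus TiPSC was 0.05 ± 0.31 for Meg3 (limma adjusted p = 0.943) and −0.01 ± 0.11 for Mirg (limma adjusted p = 0.958).

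The 250 bases before an annotated start of each of the 3 noncoding RNAs are shown because Rian fell and imprinting at this cluster is known to act through CpG methylation, with Meg3 and Mirg for comparison. They are RefSeq sequences of build GRCm38.p6 on the plus strand, 5′ to 3′, with every CpG in capitals, and methylation itself was not measured. The windows are chr12:109540746-109540995 for Meg3, chr12:109603695-109603944 for Rian and chr12:109734731-109734980 for Mirg.
Meg3: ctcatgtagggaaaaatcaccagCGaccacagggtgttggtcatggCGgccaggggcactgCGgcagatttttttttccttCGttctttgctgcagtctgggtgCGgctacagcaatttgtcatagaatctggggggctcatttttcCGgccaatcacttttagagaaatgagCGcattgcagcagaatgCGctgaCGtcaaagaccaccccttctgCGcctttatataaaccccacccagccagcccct
Rian: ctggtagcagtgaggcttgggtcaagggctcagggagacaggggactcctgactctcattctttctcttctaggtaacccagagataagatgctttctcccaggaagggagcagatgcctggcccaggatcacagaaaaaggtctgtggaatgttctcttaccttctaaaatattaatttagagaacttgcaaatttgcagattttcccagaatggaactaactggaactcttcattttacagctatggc
Mirg: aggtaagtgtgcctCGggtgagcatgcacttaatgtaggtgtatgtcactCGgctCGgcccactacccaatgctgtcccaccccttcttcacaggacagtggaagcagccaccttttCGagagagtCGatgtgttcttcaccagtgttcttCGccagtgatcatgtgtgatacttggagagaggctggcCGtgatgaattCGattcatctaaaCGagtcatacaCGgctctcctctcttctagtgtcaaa
The printed Meg3 window and the Mirg window held 10 CpGs each and the Rian window 0, where the median of 32841 such windows was 6. Windows with 10 or fewer CpGs made up 64.4% of all windows, and those with 0 made up 7.86%. The hexamer TGCCGC, which mouse ZFP57 recognises at imprinted loci when methylated, was searched on both strands. It was found 1 time in the printed Meg3 window and not in the other 2, and 8.68% of all windows held it. A second annotated start of Meg3 had a window, chr12:109545148-109545397, with 0 CpGs and 0 matches.

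Imprinted genes outside that cluster gave 1 call among 33 measured members (3.03%, against 0.401% of all genes). The list median was 0.02 against −0.0034 over all genes. Igf2, the paternally expressed growth factor, was at 11.05, 11.10 and 11.06 in ViPSC, against 9.62, 9.18 and 8.72 in ESC. All ViPSC arrays were above all ESC arrays, by 1.90 ± 0.21 (3.73-fold, limma adjusted p = 0.0332), and VM was at 13.94. Its second probe set, near the bottom of the scale, differed by 0.28. Plagl1, a zinc finger gene with an imprinted promoter, was at 8.88, 8.98 and 9.24 in ViPSC and at 9.66, 10.58 and 11.42 in ESC (−1.52, limma adjusted p = 0.148), and here ESC 3 was the farthest away. Cdkn1c, a maternally expressed inhibitor of cell division, was at 8.41 to 8.85 in ViPSC and at 7.97, 8.30 and 6.77 in ESC (limma adjusted p = 0.293). Mest was at 8.30 to 8.63 in ViPSC and 8.29 to 8.84 in ESC, and Peg3 at 11.24 to 11.30 and 10.80 to 11.62, with overlapping groups.

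**Figure D3:**
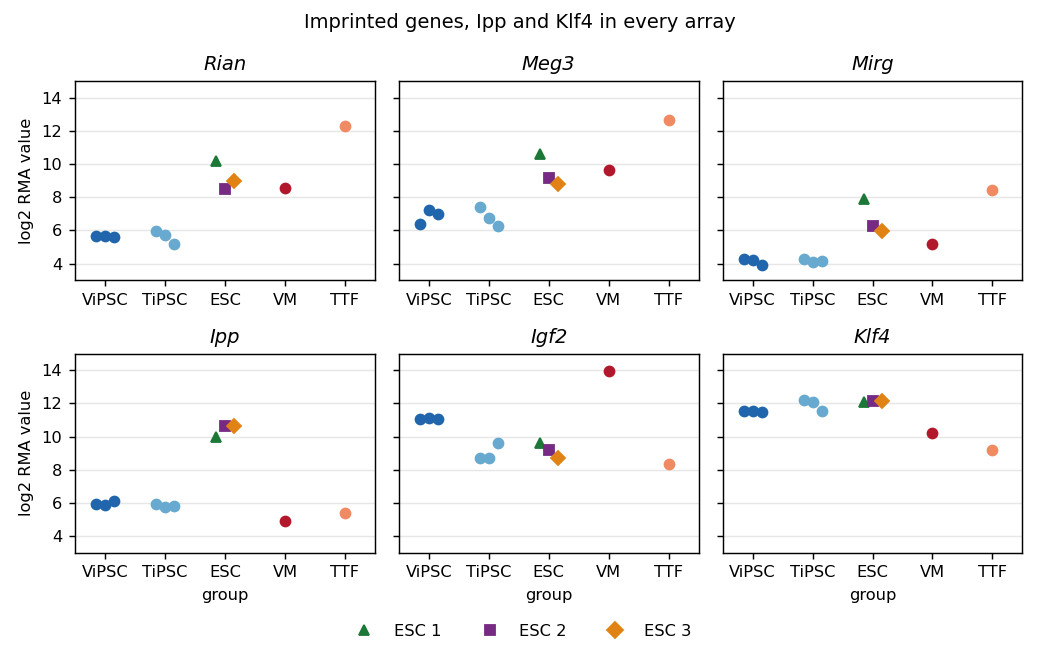
Log2 RMA values of Rian, Meg3, Mirg, Ipp, Igf2 and Klf4 in each array of ViPSC, TiPSC, ESC (symbols by array), VM and TTF. Rian, Meg3, Mirg and Ipp were lower in every ViPSC array than in every ESC array, Igf2 was higher, and Klf4 lay 0.54 log2 units apart at the nearest arrays.

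Pluripotency regulators were at high levels in both groups, and 1 of 29 measured core and naive genes was called (3.45%, against 0.401% of all genes). Klf4, a Krüppel-like factor of the naive state and a classic reprogramming factor, was at 11.54, 11.56 and 11.48 in ViPSC and at 12.10, 12.12 and 12.17 in ESC (−0.60 ± 0.07, limma adjusted p = 0.0332). The second Klf4 probe set differed by −0.37 and did not pass. The Klf4 call was lost with the mean of both probe sets (limma adjusted p = 0.0652) and in the limma fit of all 9 pluripotent arrays (adjusted p = 0.0857). Pou5f1 was at 12.74, 12.73 and 12.76 in ViPSC and at 13.00, 12.96 and 13.05 in ESC, so the groups did not overlap, but the difference of −0.26 ± 0.07 did not pass (limma adjusted p = 0.150). Nanog was at 12.62 to 12.76 in ViPSC, within the ESC arrays at 12.33, 12.88 and 13.15. Zfp42 (Rex1), a naive marker, was at 9.58 to 9.71 in ViPSC, near ESC 2 and ESC 3 at 9.75 and 9.39, while ESC 1 was at 11.51. Tbx3 and Tcl1 were near ESC 1, at 9.10 to 9.32 and 9.48 to 9.62 in ViPSC and 9.54 and 9.67 in ESC 1, and higher in ESC 2 (10.34 and 10.87) and ESC 3 (10.09 and 10.78). Dppa5a was at 14.52 to 14.56 in ViPSC and 14.52 to 14.72 in ESC, Esrrb at 10.55 to 10.75 and 10.59 to 10.81, and Sox2 at 11.94 to 12.12 and 12.12 to 12.46. Myc was at 8.09 to 8.24 in ViPSC and at 8.75, 7.74 and 7.57 in ESC. The median of ViPSC minus ESC over the list was −0.05. Primed epiblast genes had 0 of 20 members called in limma, 2 higher and 5 lower at an unadjusted p under 0.05. In 2 of the 20 the ViPSC arrays lay above all ESC arrays and in 5 below, where 11.3% and 10.9% of all genes did. Pou3f1, Dnmt3b, Fgf5 and Otx2, named next, overlapped between the groups and are not among those. Pou3f1, a POU factor of the primed state, was at 7.76 to 8.13 in ViPSC, against 8.34 in ESC 1, 6.96 in ESC 2 and 6.14 in ESC 3. Dnmt3b, a de novo DNA methyltransferase, was at 11.23 to 11.36 in ViPSC, against 11.45, 10.63 and 10.07 in ESC 1, 2 and 3. For both genes ViPSC lay near ESC 1. Fgf5 was at most 5.83 in ViPSC, between ESC 1 at 6.43 and ESC 2 and 3 at 4.59 and 4.82, and Otx2 was at 8.32 to 8.72 in ViPSC and 7.76 to 8.68 in ESC.

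Some gene groups set single ESC arrays apart from ViPSC, and in such bulk samples fewer cells of a type and less RNA per cell cannot be told apart. Several endoderm genes were high in ESC 1. Cubn (cubilin) was at 3.18 to 3.46 in ViPSC, against 8.63 in ESC 1 and 3.27 and 3.34 in ESC 2 and 3. The adaptor gene Dab2 was at 4.57 to 5.02 in ViPSC and at 7.90 in ESC 1, and the proteoglycan gene Srgn at 5.19 to 5.32 in ViPSC and at 9.80 in ESC 1. In ESC 2 and ESC 3, Dab2 was at 4.59 and 4.58 and Srgn at 5.71 and 5.33. Gata6, a master regulator of primitive endoderm, was at 4.17 to 4.50 in ViPSC and at 7.01, 4.09 and 3.89 in ESC 1, 2 and 3. Of 25 endoderm genes, 8 were at least 1 log2 unit lower in the ViPSC mean than in ESC 1 and 0 and 1 than in ESC 2 and ESC 3, where 0.473%, 1.17% and 1.64% of all genes were. The list median of ViPSC minus ESC 1 was −0.64, and it was 0.02 and 0.03 for ESC 2 and ESC 3.

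Several genes of the 2-cell-like state were high in ESC 2. Tcstv1 was at 3.31 to 3.38 in ViPSC, against 3.43, 7.22 and 3.71 in ESC 1, 2 and 3, and Zfp352 was at 3.96 to 4.30 in ViPSC, against 3.91, 7.02 and 4.45. Usp17la, a deubiquitinase gene, was at 3.90 to 4.17 in ViPSC and at 3.65, 7.52 and 4.80 in ESC 1, 2 and 3. Of 10 measured genes, 7 were at least 1 log2 unit lower in the ViPSC mean than in ESC 2, 2 than in ESC 3 and 0 than in ESC 1, where 1.17%, 1.64% and 0.473% of all genes were. Pramel7, a gene of the naive state, was at 5.36 to 5.78 in ViPSC, between ESC 1 at 4.12 and ESC 2 and 3 at 7.62 and 8.96.

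Several germ cell genes were highest in ESC 3 and lowest in ESC 1. Dazl, which binds germ cell mRNAs, was at 8.08 to 8.19 in ViPSC, against 7.22, 8.44 and 10.44 in ESC 1, 2 and 3. Hormad1, a meiotic chromosome axis gene, was at 5.58 to 5.69 in ViPSC and at 5.08, 7.26 and 7.73 in ESC 1, 2 and 3, and Sohlh2 was at 6.94 to 7.05 and at 6.39, 8.59 and 9.04. Of 34 germline genes, 10 were at least 1 log2 unit lower in the ViPSC mean than in ESC 3 and 0 higher. Over all genes those shares were 1.64% and 1.81%. Against ESC 2, 6 were lower and 2 higher by that much (1.17% and 1.47% of all genes). Against ESC 1, 0 were lower and 6 higher (0.473% and 0.748% of all genes). The germline list medians were 0.35 for ViPSC minus ESC 1, −0.06 for ESC 2 and −0.32 for ESC 3.

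Several epithelial genes were at like levels in ViPSC and ESC 1 and lower in ESC 2 and ESC 3. Krt18, a keratin of simple epithelia, was at 11.59, 11.74 and 11.52 in ViPSC, against 11.46, 10.29 and 9.61 in ESC 1, 2 and 3. Epcam, an adhesion molecule, was at 12.19 to 12.25 in ViPSC and at 12.22, 11.56 and 11.21 in ESC, while Cdh1 (E-cadherin) was at 10.70 to 10.91 and 10.82 to 11.01. Of 19 epithelial genes, 0, 6 and 9 were at least 1 log2 unit higher in the ViPSC mean than in ESC 1, 2 and 3, where 0.748%, 1.47% and 1.81% of all genes were. None of the 19 passed the threshold in limma, and 7 were higher at an unadjusted p under 0.05. The FGF target gene Etv5, chosen after its values were seen, was at 11.57 to 11.65 in ViPSC, against 11.62, 10.43 and 10.17 in ESC 1, 2 and 3. Dusp6, a phosphatase that ERK induces, was at 10.33 to 10.39 in ViPSC, against 10.62, 9.51 and 9.12. The whole LIF and FGF list had medians of −0.34, 0.02 and 0.18 for ViPSC minus ESC 1, 2 and 3. Of its 23 members, 3, 0 and 1 were at least 1 log2 unit lower in the ViPSC mean than in ESC 1, 2 and 3. Over all genes those shares were 0.473%, 1.17% and 1.64%. By the same distance 0, 2 and 2 members were higher, where 0.748%, 1.47% and 1.81% of all genes were. Bmp4, a ligand of the TGF-beta family, was at 9.21 to 9.30 in ViPSC and at 10.01, 7.35 and 6.30 in ESC 1, 2 and 3.

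**Figure D4:**
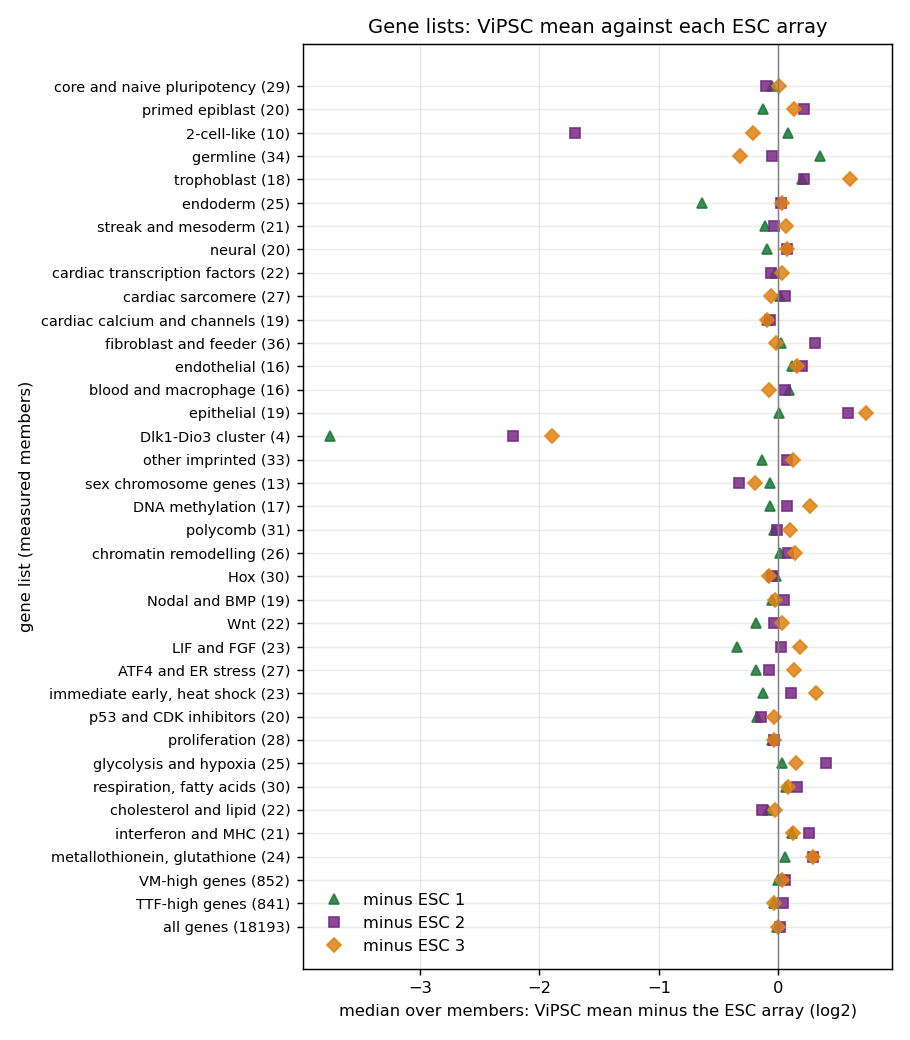
Median log2 difference of the ViPSC mean minus ESC 1, ESC 2 or ESC 3 (triangles, squares and diamonds) over the measured members of 34 gene lists, of genes higher in VM or in TTF, and of all genes. The Dlk1-Dio3 cluster was lower than in every ESC array (medians of −3.76, −2.22 and −1.89), the endoderm median against ESC 1 was −0.64 and the 2-cell-like median against ESC 2 was −1.70.

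The genes with the largest ranges among the ESC arrays, at a mean level of at least 7, were Gm9, Bmp4, Pnma5, AI662270 and Mcf2. Gm9 on chromosome X was at 7.10 to 7.40 in ViPSC and at 4.66, 8.21 and 8.78 in ESC 1, 2 and 3, and Pnma5, also on X, was at 9.62 to 9.64 and at 7.04, 10.53 and 10.66. For both the ViPSC arrays lay between ESC 1 and the others, and the mean difference over all 6 arrays, 0.04 and 0.22, turned negative without ESC 1. Mcf2, a guanine nucleotide exchange factor on X, was at 6.69 to 6.80 in ViPSC and at 6.46, 9.22 and 9.71 in ESC. AI662270 on chromosome 11 was at 8.19 to 8.81 in ViPSC and at 8.09, 4.76 and 6.58 in ESC.

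Chromosomes 11 and X differed between arrays in most of their genes. Over 652 genes of chromosome 11 with a mean level of at least 7, the median deviation from the mean of the 6 arrays was 0.16, 0.16 and 0.16 in ViPSC 1, 2 and 3, against −0.27, −0.30 and 0.09 in ESC 1, 2 and 3. The ViPSC mean was higher than ESC 1 in 94.3% of these genes, than ESC 2 in 89.3% and than ESC 3 in 54.9%, so ESC 3 was close to ViPSC. Of 1443 tested genes of chromosome 11, 17 were called (1.18%, against 0.401% of all genes), all 17 higher in ViPSC, by 0.56 to 1.43 log2 units. Sox15, the phospholipid-binding annexin Anxa6 (1.15 ± 0.14), the NF-kappaB subunit gene Rel (0.85 ± 0.08) and the DNA polymerase delta subunit gene Pold2 (0.61 ± 0.08) are among them. The part of the chromosome-wide shift in their calls was not tested. With chromosomes 8, 11, X and Y left out the fit called 49 genes, 29 higher and 20 lower in ViPSC.

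Over 260 expressed genes of chromosome X, the median deviation was −0.30, −0.29 and −0.30 in ViPSC and −0.24, 0.54 and 0.58 in ESC 1, 2 and 3. ESC 1 was close to ViPSC, and the ViPSC mean was lower than ESC 2 in 95.8% and than ESC 3 in 96.2% of these genes. None of 617 X-linked genes was called in limma. Eif2s3x, the X-linked partner of Eif2s3y, was at 11.77 to 11.79 in ViPSC and at 11.97, 12.54 and 12.59 in ESC, and Kdm6a at 8.63 to 8.91 and at 8.87, 10.09 and 9.65. Xist, the RNA that coats the inactive X, was at 6.03 to 6.24 in ViPSC and at 6.40, 8.06 and 7.26 in ESC (−1.10, limma adjusted p = 0.226). Of the 9 tested Y-linked genes, 3 were called, all higher in ViPSC. In TiPSC, Eif2s3y was at 5.11, 8.64 and 8.80. Among 13 listed sex chromosome genes, 2 rose (Eif2s3y and Uty) and 0 fell (15.4% called, against 0.401% of all genes). The list median was −0.29.

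**Figure D5:**
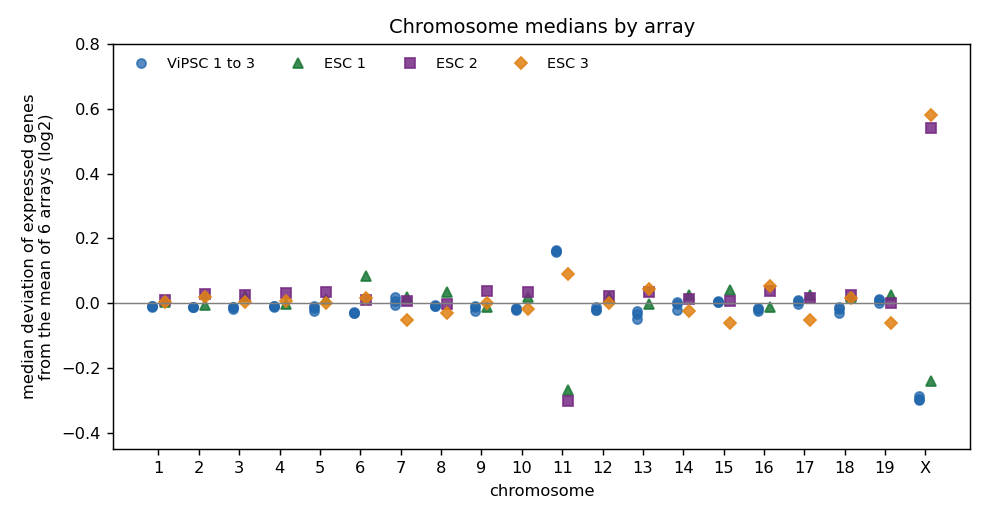
Median log2 deviation of the expressed genes of each chromosome from the mean of the 6 arrays, for each ViPSC array (circles) and ESC 1, 2 and 3 (triangles, squares and diamonds), after centring each array on its autosomal genes. Chromosome 11 was at 0.16 in the ViPSC arrays and at −0.27, −0.30 and 0.09 in ESC 1, 2 and 3, and chromosome X at −0.30 to −0.29 and at −0.24, 0.54 and 0.58.

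Whether transcripts of the source sample were still higher in the myocyte-derived cells was asked with 852 VM-high genes. Their VM level exceeded the TTF level by 2 log2 units or more, a definition that uses neither group. The VM array also had endothelial transcripts, with a list median of 10.27 against 4.35 in TTF. The endothelial cadherin gene Cdh5 was at 11.61 in VM and 3.72 in TTF, so a VM-high gene need not be a myocyte gene. Of the 852 genes, 7 rose in ViPSC against ESC and 0 fell (0.822% called, against 0.401% of all genes), with a median of 0.02 against −0.0034 over all genes. At an unadjusted p under 0.05 in limma 116 were higher and 56 lower. The ViPSC mean was at least 1 log2 unit higher than ESC 1, 2 and 3 in 13, 40 and 49 genes. It was that much lower in 12, 14 and 23. Over all 18193 genes the counts were 136, 267 and 329 higher and 86, 213 and 298 lower. Of the 841 TTF-high genes, 0 rose and 3 fell (0.357%), with a median of −0.01. At an unadjusted p under 0.05 in limma 80 of these were higher and 98 lower. Besides Igf2, the 7 VM-high genes that rose were Selenbp1, Hrc, Cldn5, Acaa2, Rasd1 and Rel. Selenbp1, a selenium-binding protein that oxidises methanethiol, was at 6.96, 6.96 and 6.93 in ViPSC, against 5.90, 5.86 and 5.71 in ESC and 9.54 in VM (1.13 ± 0.08, limma adjusted p = 0.0116). Hrc, which binds calcium inside the sarcoplasmic reticulum, was at 6.31, 6.41 and 6.08 in ViPSC, against 5.36, 5.12 and 5.00 in ESC and 10.51 in VM (1.11 ± 0.13, limma adjusted p = 0.0332). Acaa2, an enzyme of mitochondrial fatty acid oxidation, was higher by 0.90 ± 0.09 in ViPSC and was at 13.07 in VM. Rasd1 and Rel lie on chromosome 11, and Selenbp1, Hrc, Cldn5, Acaa2 and Igf2 do not. In every case the ViPSC level stayed below that of VM except for Rasd1, at 6.92 to 6.99 in ViPSC and 6.69 in VM.

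The sarcomere list had a median level of 4.87, 4.65 and 4.94 in ViPSC and 4.49, 4.80 and 4.91 in ESC. Myh6, the alpha myosin heavy chain, was at 4.13 to 4.15 in ViPSC and 4.04 to 4.16 in ESC, and Tnnt2, cardiac troponin T, at 3.29 to 3.37 and 3.30 to 3.60. Myl2 was at most 4.17 in ViPSC and 4.14 in ESC, the natriuretic peptide gene Nppa at 3.57 to 3.86 and 3.83 to 3.96, and the cardiac factor gene Nkx2-5 at 4.93 to 5.02 and 4.96 to 5.26. Of 27 sarcomere genes and 22 cardiac transcription factors none was called in limma, and at an unadjusted p under 0.05 there were 5 higher and 0 lower and 2 higher and 1 lower. Myl4, an atrial and fetal myosin light chain on chromosome 11, was at 7.48 to 7.82 in ViPSC, against 6.40, 6.56 and 7.26 in ESC (limma adjusted p = 0.133). Among 19 genes of calcium handling and channels 1 rose, Hrc (5.26% called, against 0.401% of all genes). At an unadjusted p under 0.05 in limma 1 of the 19 was higher and 5 were lower. In 2 the ViPSC arrays lay above all ESC arrays and in 7 below, where 11.3% and 10.9% of all genes did. Pln was at 3.56 to 3.71 in ViPSC and 3.59 to 3.73 in ESC. The list medians were −0.03 for sarcomere genes, −0.04 for cardiac transcription factors and −0.04 for calcium handling.

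Markers of other cells that the samples could hold gave 1 call. None of 36 fibroblast and feeder genes was called in limma (4 higher and 0 lower at an unadjusted p under 0.05), and their median level was 7.70, 7.83 and 7.84 in ViPSC, against 7.71, 7.26 and 7.87 in ESC and 13.25 in TTF. ESC 2 had the lowest of these medians. Col1a1 was at 6.20 to 6.54 in ViPSC and 6.09 to 6.50 in ESC, Postn at 5.72 to 6.19 and 5.46 to 6.22, and Thy1 at most 6.31 and 6.40. Of 16 endothelial genes 1 rose, Cldn5 (6.25% called, against 0.401% of all genes). At an unadjusted p under 0.05 in limma 6 of the 16 were higher and 0 lower, and the list median was 0.22. In 5 the ViPSC arrays lay above all ESC arrays and in 0 below, where 11.3% and 10.9% of all genes did. Cldn5, a tight junction claudin, was at 5.42, 5.47 and 5.54 in ViPSC against 4.56, 4.50 and 4.13 in ESC (1.08 ± 0.13, limma adjusted p = 0.0332). The endothelial cadherin gene Cdh5 was at 3.78 to 3.86 in ViPSC and 3.58 to 3.85 in ESC, near the bottom of the scale. None of 16 blood and macrophage genes was called in limma, with 2 higher and 1 lower at an unadjusted p under 0.05. Ptprc (CD45) was at 3.63 to 3.82 in ViPSC and 3.44 to 3.65 in ESC. Cd68, a lysosomal gene on chromosome 11, was at 8.84 to 8.95 in ViPSC and at 8.04, 7.70 and 7.26 in ESC (limma adjusted p = 0.0542).

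The median difference of trophoblast genes was 0.33. In 9 of 18 the ViPSC arrays were all above the ESC arrays and in 0 all below, where 11.3% and 10.9% of all genes were. None passed the threshold in limma. At an unadjusted p under 0.05 in limma 8 were higher and 0 lower, where 1649 and 1318 of all 18193 genes were. Gata3, a trophoblast transcription factor, was at 6.85, 7.17 and 6.95 in ViPSC, against 6.07, 6.54 and 5.91 in ESC (limma adjusted p = 0.100). Krt7, a simple-epithelial keratin, was at 9.03, 9.15 and 8.99 in ViPSC, against 8.39, 7.95 and 7.28 in ESC (limma adjusted p = 0.105). Cdx2, which drives trophectoderm, was at 5.41 to 5.86 in ViPSC and overlapped ESC 1 at 5.47. Streak and mesoderm (21 genes), neural (20) and Hox genes (30) had no called member in limma, with 5 higher and 1 lower, 2 and 0, and 0 and 2 at an unadjusted p under 0.05. Their medians were −0.02, −0.03 and −0.08.

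Of 24 metallothionein and glutathione genes 2 rose, Mt4 and Gstp1 (8.33% called, against 0.401% of all genes). Gstp1, a glutathione transferase, was at 13.08, 13.08 and 13.15 in ViPSC against 12.48, 12.60 and 12.39 in ESC (0.61 ± 0.08, limma adjusted p = 0.0498). The Gstp1 call was lost with centred arrays (limma adjusted p = 0.0616) and with chromosomes 8, 11, X and Y left out (limma adjusted p = 0.0531). The glutathione transferases Gstm1 and Gstm2 were 0.44 and 0.58 higher without passing (limma adjusted p = 0.0813 and 0.0542), and the common metallothioneins Mt1 and Mt2 were at 13.57 to 13.69 in ViPSC and 13.01 to 13.72 in ESC. Of 25 glycolysis and hypoxia genes, 10 lay above all ESC arrays and 3 below, against 11.3% and 10.9% of all genes. Their median was 0.24 and 0 were called in limma. At an unadjusted p under 0.05 in limma 9 were higher and 0 lower, where 1649 and 1318 of all 18193 genes were. Ndrg1, a hypoxia-induced gene, was at 9.16 to 9.29 in ViPSC and 8.59 to 8.83 in ESC (limma adjusted p = 0.0723). Of 21 interferon and MHC genes, 7 lay above all ESC arrays and 0 below, against the same shares of all genes, with a median of 0.16 and 0 called in limma (7 higher and 0 lower at an unadjusted p under 0.05). Psmb9, an immunoproteasome subunit, was at 7.40, 7.24 and 7.63 in ViPSC, against 6.80, 6.15 and 5.98 in ESC (limma adjusted p = 0.0865). In the other direction, 7 of 22 cholesterol and lipid genes and 7 of 20 p53 and cell cycle inhibitor genes lay below all ESC arrays (10.9% of all genes) and 2 and 1 above (11.3%), with medians of −0.11 and −0.17 and 0 called in limma (6 and 5 lower, 2 and 1 higher at an unadjusted p under 0.05). Pmaip1 (Noxa), a p53 target that promotes apoptosis, was at 9.92 to 10.16 in ViPSC, against 10.73, 11.50 and 11.83 in ESC (limma adjusted p = 0.0942).

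The remaining lists had no called member in limma. These were DNA methylation (17 genes, median 0.08), polycomb (31, 0.0006), chromatin remodelling (26, 0.0011), Nodal and BMP (19, 0.0012), Wnt (22, −0.09), LIF and FGF (23, 0.10), ATF4 and ER stress (27, −0.06), immediate early and heat shock (23, 0.14), proliferation (28, −0.05), and respiration and fatty acids (30, 0.09). At an unadjusted p under 0.05 they had 0 to 4 members higher and 0 to 5 lower each. Among DNA methylation enzymes, Dnmt3a was at 8.64 to 9.48 in ViPSC and 8.55 to 9.04 in ESC, Dnmt3l at 11.99 to 12.06 and 11.67 to 12.12, and Tet1 at 10.39 to 11.15 and 10.21 to 11.20. Ezh2, the polycomb methyltransferase, was at 10.94 to 11.06 in ViPSC and 11.14 to 11.21 in ESC (limma adjusted p = 0.277). In all, 9 of 733 different listed genes were called, 7 higher and 2 lower, where 0.401% of all genes were. Of the 34 lists 27 had none, and at that share a short list without a called member says little.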

How the data were processed

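Total RNA from 11 samples was measured on Affymetrix mouse arrays. The authors deposited log2 expression values for 45101 probe sets, made by RMA per the submitters' processing notes, which normalizes between arrays and compresses differences near background. The software version and probe annotation are not given in the sources used here, and the number of arrays limits the precision. Control probe sets (64), those with several gene symbols (932) and those without one (9160) were left out. Each of the 18193 genes was represented by its brightest probe set, taken by the mean of all 11 arrays, and 9010 genes had more than 1. Symbols came from the platform annotation and chromosomes from a RefSeq gene table, which held 34737 of 34945 probe sets by Entrez identifier.

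The 6 ViPSC and ESC arrays were fitted alone with limma 3.58.1 in R 4.3.3 (lmFit and eBayes, two-sided, Benjamini-Hochberg over all genes, threshold 0.05), which was tested on simulated data. The simulation gave both groups the same spread for each gene, so it did not cover the wider spread of the ESC arrays. The labels do not say whether equal replicate numbers pair the samples, and the main fit used no pairing. Same-numbered ViPSC and ESC arrays correlated at −0.02, −0.07 and −0.01 in their deviations from the group means, which does not settle it. Chromosome medians used genes with a mean of at least 7. Lists were described by counts and medians without a set test. Members and lists were chosen with earlier results of these data known.

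Genes named were the 10 largest rises and falls past the threshold, up to 3 called members per list and direction, the 5 widest gaps per direction, the 5 largest ranges among ESC arrays, the 5 largest VM-high changes per direction, and a set list of markers. H19 and Ddx3y from that list were not analysed here. Other genes were picked as examples after their values were seen. Alternatives covered the arrays sharing the spread, group weights, an intensity trend, the replicate block, probe set choice, low values, scaling, chromosomes and single arrays.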

Additional observations from a re-analysis of the deposited data

Results flagged for a closer look

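The 6 genes in this section come from the genes named by the set rules. They passed between ViPSC and ESC, with every ViPSC array on one side of the ESC arrays and the TiPSC mean on the other side of the ESC mean. Other called genes, such as Gjb5 and Rasd1, had the same pattern. For Igf2 and Slc7a1 the TiPSC mean lay inside the range of the ESC arrays. Because this choice already sets ViPSC apart from TiPSC, the differences are given as a description, with no test. Mt4 was 2.63 ± 0.13 log2 units higher in ViPSC than in TiPSC (SE, 3 arrays per group), Igf2 was 2.06 ± 0.24 higher, Selenbp1 was 1.52 ± 0.08 higher and Gstp1 was 1.05 ± 0.10 higher. Slc7a1 differed by −1.27 ± 0.15 and Qser1 by −1.25 ± 0.08. Against ESC, the TiPSC differences of Mt4, Igf2, Selenbp1, Gstp1, Slc7a1 and Qser1 were −0.72, −0.16, −0.39, −0.44, 0.13 and 0.37, and none passed the threshold in limma (adjusted p of 0.337 to 0.867). Over all genes, 14.4% were called between ViPSC and TiPSC.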

How the results depend on the processing

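The number of genes past the threshold, 73, was 390 with the spread shared by 9 pluripotent arrays, 175 with group weights, 136 among genes at or above the median level and 3 with the replicate block. Those at least 2-fold, 35, were 78 and 68 under the first 2 settings, 22 with the mean of all probe sets and 3 with the block. Called genes with a gap of at least 1, 15, were 3 with the block. Leaving out 1 array gave 0 to 2780, 0 to 429 and 0 to 178. The block left the differences themselves unchanged, so it is no check of effect size. The labels do not say whether equal numbers pair the samples, so its counts cannot be set aside. VM-high genes had a median of 0.11 at or above the median level and −0.0224 with centred arrays, against 0.0226, and TTF-high genes −0.0522 with centred arrays, against −0.0071. Over all genes the median was 0.0318 at or above the median level and −0.0484 with centred arrays, against −0.0034, so centring moved these lists with all genes alike. Leaving out 1 array put Gm9 at −1.24 to 0.82 and Pnma5 at −0.96 to 0.85, the lowest in both without ESC 1. All 26 named called genes kept their sign wherever tested. Other causes were not tested, and no detection calls were used.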

Other observations

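Without ESC 1, ViPSC differed from ESC 2 and ESC 3 in 2780 genes in limma (15.3%), 1667 higher (9.16%) and 1113 lower (6.12%) in ViPSC. Epithelial genes had 11 of 19 members higher and 0 lower, and metallothionein and glutathione genes 11 of 24 higher and 4 lower. Glycolysis and hypoxia genes had 9 of 25 higher and 0 lower, trophoblast genes 6 of 18 higher and 0 lower, and LIF and FGF genes 7 of 23 higher and 2 lower. In the other direction germline genes had 10 of 34 members lower and 1 higher, and sex chromosome genes 6 of 13 lower and 2 higher. Core and naive pluripotency genes had 2 of 29 higher and 6 lower. These counts rest on 2 ESC arrays that were nearer to each other than to ESC 1, and they describe a contrast of 5 arrays, not a correction of the one with 6.

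The following are examples of listed genes that did not pass although their ViPSC and ESC arrays were fully separated, as in 22.2% of all genes. Rbm44, an RNA-binding gene of germ cells, was at 7.75, 7.62 and 7.42 in ViPSC and at 6.75, 6.20 and 6.64 in ESC (limma adjusted p = 0.0542). Amn, the partner of cubilin, was at 6.25, 6.35 and 6.20 in ViPSC and at 8.03, 6.98 and 7.39 in ESC (limma adjusted p = 0.0925). Fgf15, a fibroblast growth factor, was at 5.28, 5.04 and 5.61 in ViPSC and at 6.81, 6.19 and 6.49 in ESC (limma adjusted p = 0.0656). Laptm5, a lysosomal membrane gene, was at 8.26, 8.36 and 8.21 in ViPSC and at 8.99, 9.50 and 8.87 in ESC (limma adjusted p = 0.0863).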
